A study of Stylophora pistillata with 24 samples.

Results

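Adult colonies of the stony coral Stylophora pistillata from the shallow reef were compared with 60-day-old juveniles kept on the shallow reef. Libraries were chosen by label: 3 of shallow adults and 3 of shallow control juveniles sampled at 60 days, 6 of the 24 RNA-seq libraries in the series, read over all genes. The adults (labelled shallow native) were taken from the natural reef. The juveniles (labelled shallow control) were of shallow-reef origin and grew at 5 m in plastic settlement chambers. Every library was made from whole organism tissue, and the labels name no strain, mutation or chemical agent for any group. Age and life in a chamber therefore cannot be told apart here. A second pair was used where named: adults from the deep reef (labelled deep native), and 60-day juveniles of shallow origin translocated to 45 m and also grown in chambers. Shallow planulae from the reef and 8-day control juveniles gave the earlier stages. The labels number the replicates but give no colony or brood of origin, so the tests describe variation among these libraries only, some of which may be technical.

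A reef-building coral starts as a swimming planula, settles, metamorphoses into a single polyp that lays down an aragonite skeleton, and then buds into a colony. Its host cells carry dinoflagellate algae that supply much of its sugar and lipid, and it also captures prey with stinging cells (cnidocytes). Corals have no adaptive immune system. They rely on innate sensors that recognise microbial sugars, lipids and nucleic acids, among them lectins, Toll-like and NLR receptors, the STING pathway and nucleic-acid helicases, which signal in part through TRAF adaptors.

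The 3 adult libraries held 27004874, 27036596 and 24016620 counts and the 3 juvenile libraries 26300728, 26917266 and 17739527. In the third adult library the 10 most abundant genes took 15.8% of counts, against 6.75% and 6.83% in the other adults and 9.29% to 9.57% in the juveniles. Median Spearman correlation of gene levels was 0.937 within adults, 0.947 within juveniles and 0.829 between them. By the same measure 60-day and 8-day controls stood at 0.922, and adults and shallow planulae at 0.739. Adults and 8-day controls stood at 0.845, so adults were not nearer to the 60-day than to the 8-day juveniles. Pairs of libraries ranged from 0.839 to 0.854 for adults with 8-day controls, and from 0.809 to 0.855 with 60-day controls. No targeted gene exists to check the labels. Levels are given as CPM, a count divided by its library's scaled total. The yolk gene vitellogenin-1 (gene17505) had a mean of 10.4 ± 15.2 CPM in the adults and 0.111 ± 0.15 CPM in the juveniles (SD, n = 3 each), with the third adult library the highest. In whole-animal RNA, fewer cells of a type and less RNA per cell cannot be told apart.

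A large share of the transcriptome separated the stages. Of 25735 genes tested, 8084 (31.4%) passed an adjusted p of 0.05 (called; edgeR quasi-likelihood test, Benjamini-Hochberg over all genes): 4293 were higher in adults (16.7%) and 3791 lower (14.7%). Of all genes, 14.8% were called and over 2-fold higher and 9.17% called and over 2-fold lower. The largest changes were more often rises: 1186 called genes were over 16-fold higher in adults and 288 over 16-fold lower. When the third juvenile library, which had the fewest counts of the 6, was left out, 5318 genes were called. All 3 adult libraries lay above all 3 juvenile libraries in 6490 genes (25.2%) and below them in 6278 (24.4%). In 54 genes the juveniles had 0 counts and the adults a mean over 1 CPM, and in 9 genes the adults had 0 counts and the juveniles a mean over 1 CPM. The median log2 fold change over all tested genes was 0.03, and 0.19 with no scaling factor, so a list's median is best read against those values. A list's counts are best read against the 16.7% higher and 14.7% lower of all genes.

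**Figure D1:**
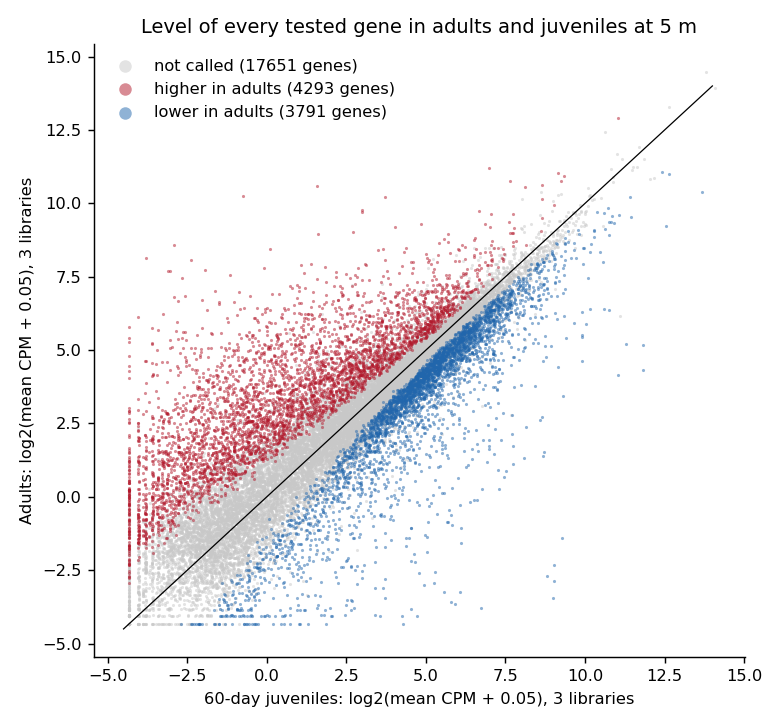
Mean level of each tested gene in the 3 shallow adults (vertical) and the 3 juveniles of 60 days (horizontal), both as log2(CPM + 0.05). Points are genes, red where called higher in adults (4293), blue where called lower (3791) and grey where not called; the red points spread farther from the line of equality than the blue ones.

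Some gene lists fell in most of their members, and others had more rises than falls. Genes of energy metabolism and protein breakdown were lower in adults: 55 of 69 oxidative phosphorylation genes, 34 of 43 proteasome genes, 29 of 39 fatty acid oxidation genes and 22 of 33 genes of glycolysis, gluconeogenesis and the citrate cycle were called lower, where 14.7% of all genes were. In the first 3 of these lists no member was called higher. Immune, matrix and signalling lists ran the other way, with 105 of 361 innate immunity genes, 90 of 361 extracellular matrix and adhesion genes and 66 of 231 genes of Wnt, BMP, Notch, Hedgehog and FGF signalling called higher, where 16.7% of all genes were. Leaving out the third juvenile library gave 36 lower for oxidative phosphorylation, 20 for the proteasome, and 52 and 41 higher for the matrix and signalling lists. Calls over all genes fell as well, to 2884 higher and 2434 lower of 26475 tested, from 4293 and 3791 of 25735. Leaving out any other library of the shallow pair also lowered both all-gene counts. List counts without a library, here and below, are therefore not to be read against 16.7% and 14.7%. Lists near or below the background in both directions included the cell cycle (10 of 173 higher, 14 lower) and cilia (10 of 107 higher, 13 lower), with counts that depended on the libraries used: cilia had 2 higher without the third juvenile library, 5 lower without the third adult and 25 lower without the second juvenile. The cell cycle had 3 higher without the second juvenile library and 7 lower without the third.

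**Figure D2:**
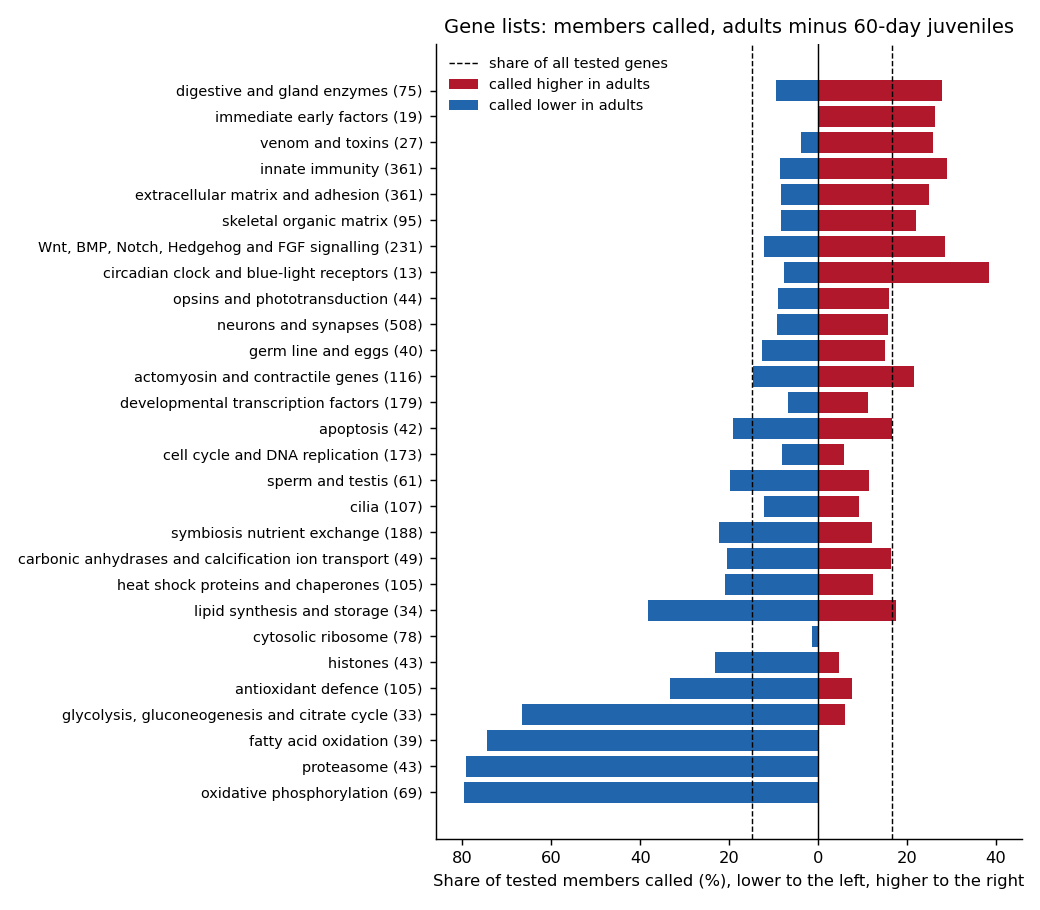
Share of each list's tested members called higher (red, right) or lower (blue, left) in adults than in 60-day juveniles, with the number tested in brackets and lists ordered by median log2 fold change. Dashed lines mark the share of all tested genes, 16.7% higher and 14.7% lower; 4 metabolic and proteasome lists reach past 60% lower.

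All 5 respiratory complexes had genes that fell. Complex I, which feeds electrons from NADH, had 16 of 20 tested subunit genes lower and none higher, and their summed level was 994, 949 and 1208 CPM in the adults, against 2427, 2124 and 2547 CPM in the juveniles. No adult library reached the level of any juvenile library. Succinate dehydrogenase (complex II) was lower in 4 of 4 genes, complex III in 4 of 4, the subunits of cytochrome c oxidase (complex IV) in 9 of 12, and ATP synthase in 7 of 10. Complex IV sums overlapped, at 407, 441 and 1222 CPM in adults and 1120, 1210 and 1735 CPM in juveniles, with the third adult library the high one. The complex III count was 1 without the third juvenile library, and the ATP synthase count 4 without the first. The flavoprotein subunit of succinate dehydrogenase (gene22267), which oxidises succinate, had 406, 365 and 403 CPM in adults, against 1170.4, 1042 and 1273 CPM in juveniles, a log2 fold change of −1.57 ± 0.19 (SE; adjusted p = 1.03e-05, edgeR). NDUFA4 (gene17976), a cytochrome c oxidase subunit, was at 22.4, 27.3 and 36.1 CPM in adults, against 113, 135 and 184 CPM in juveniles (log2 −2.33 ± 0.31, adjusted p = 2.47e-05). The list median was −1.09, and −0.92 with no scaling factor.

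Genes that build the mitochondrion fell too. Of 51 tested proteins of the mitochondrial ribosome, which translates the organelle's own transcripts, 42 were lower in adults and none higher (19 without the third juvenile library), and 14 of 16 genes of mitochondrial protein import were lower (6 without the first adult library). Beyond a log2 change of 1, 1 mitochondrial ribosome gene and 0 import genes were called lower. The summed level of mitochondrial ribosomal proteins was 571 to 695 CPM in adults and 1065 to 1527 CPM in juveniles. Of 78 tested genes of the cytosolic ribosome 1 was called, a 60S L4-B gene (gene25774) with means of 0.109 CPM in adults and 0.609 CPM in juveniles, and the list median was −0.32. Falls also outnumbered rises in ADP-ribosylation factors (15 of 18 lower, 0 higher), translation initiation factors (17 of 37 and 1) and spliceosome genes (23 of 73 and 0). Without the third juvenile library 4, 5 and 7 of them were lower. Aminoacyl-tRNA synthetases had 5 of 24 lower and 3 higher.

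Carbohydrate and fatty acid enzymes fell too. The paired phosphoenolpyruvate carboxykinase genes, whose product commits carbon to new glucose, had 76.2, 56.2 and 43.3 CPM (gene18451, named cytosolic) and 69.7, 47.0 and 66.3 CPM (gene18452, named mitochondrial) in adults. In juveniles they had 606, 894 and 1626 CPM and 719, 919 and 785 CPM, and log2 fold changes were −4.15 ± 0.57 and −3.73 ± 0.38 (adjusted p = 3.87e-05 and 1.77e-06, edgeR). Pyruvate carboxylase (gene284), the step before them, was at 114, 102 and 107 CPM in adults against 298, 364 and 488 CPM in juveniles. Enolase (gene13500) had 127, 109.7 and 135 CPM in adults, against 592, 607 and 695 CPM in juveniles (log2 −2.35 ± 0.18, adjusted p = 7.47e-08). Fructose-bisphosphate aldolase (gene20256) and glyceraldehyde-3-phosphate dehydrogenase (gene17498) were 5.91-fold and 4.24-fold lower in adults. These enzymes form a set in which 9 of 14 tested genes of glycolysis and gluconeogenesis fell and 1 rose, enolase 4 (gene12935; 22.7, 33.4 and 22.2 CPM in adults, 17.3, 17.8 and 15.3 CPM in juveniles).

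For fat, the mitochondrial 3-ketoacyl-CoA thiolase (gene21796), the last step of a beta-oxidation round, had 33.1, 27.4 and 29.5 CPM in adults, against 89.7, 140.5 and 179 CPM in juveniles (log2 −2.19 ± 0.25, adjusted p = 7.61e-06, edgeR). Medium-chain acyl-CoA dehydrogenase (gene19811), the first step, was at 544, 531 and 592 CPM in adults and 1717, 1322 and 1712 CPM in juveniles. The carnitine/acylcarnitine carrier (gene1836), which brings fatty acids into the mitochondrion, was 3.69-fold lower in adults. In none of these 3 genes did the groups overlap. Lipid synthesis and storage was divided: 6 of 34 genes rose and 13 fell (7 without the first adult library). Long-chain-fatty-acid–CoA ligase 4 (gene12809), which activates fatty acids, had 129, 120.2 and 154 CPM in adults and 406, 425 and 500.0 CPM in juveniles. A delta(8)-fatty-acid desaturase (gene10461) went the other way, with 141, 108 and 122 CPM in adults against 28.2, 41.3 and 31.5 CPM in juveniles (log2 1.88 ± 0.19, adjusted p = 1.82e-06, edgeR). An acyl-CoA desaturase (gene24411), which puts double bonds into fatty acids, rose to 222, 226 and 322 CPM in adults, against 17.1, 18.7 and 33.6 CPM in juveniles (log2 3.47 ± 0.41, adjusted p = 8.91e-06), whereas the lipid carrier apolipoprotein D (gene8824) fell to 30.6, 40.4 and 52.5 CPM in adults, against 365, 282 and 382 CPM in juveniles.

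The proteasome, which degrades ubiquitin-tagged proteins, was lower in adults in most of its parts. All 14 tested subunits of its catalytic core were called lower, and 17 of 20 of its regulatory cap (11 and 7 without the third juvenile library). Beyond a log2 change of 1, 0 core and 0 cap subunits were called. Core subunits summed to 633, 596 and 792 CPM in the adults, against 1370, 1508 and 2272 CPM in the juveniles; the third juvenile library was the highest of the 6. The maturation factor that assembles the core (gene1905) had 38.9, 41.2 and 44.0 CPM in adults and 93.0, 106 and 165 CPM in juveniles (log2 −1.55 ± 0.25, adjusted p = 1.96e-04, edgeR). Lysosomal proteases moved the same way at their abundant members: cathepsin B (gene14622) had 243, 255 and 465 CPM in adults, against 1187, 1314 and 1722 CPM in juveniles. Cathepsin L1 (gene4271) was at 426, 446 and 595 CPM in adults against 1297, 1494 and 2357 CPM in juveniles, and a further cathepsin L1 (gene17528) at 102, 99.3 and 111 CPM in adults against 290.3, 315 and 517 CPM in juveniles. In all, 6 of 10 cathepsin genes were lower in adults and 3 higher.

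Antioxidant enzymes were another group of falls, 35 of 105 genes against 8 rises (5 without the first juvenile library). Catalase (gene3500), which splits hydrogen peroxide, had 1447, 1433 and 1111 CPM in adults and 13577, 11842 and 13426 CPM in juveniles, where it was among the 5 most abundant named genes (log2 −3.28 ± 0.35, adjusted p = 3.15e-06, edgeR). Peroxiredoxin-6 (gene14847), which reduces peroxides, had 29.1, 21.6 and 31.6 CPM in adults and 438, 419 and 455 CPM in juveniles. A copper-zinc superoxide dismutase (gene1101) was 3.32-fold lower in adults. Glutathione S-transferases, which conjugate reactive compounds, fell in 7 of 14 genes and rose in 1; glutathione S-transferase 1 (gene22508) had 1.43, 7.25 and 1.04 CPM in adults against 173, 139 and 329 CPM in juveniles. Soma ferritin (gene11073), an iron store, was at 1928, 1777 and 2423 CPM in adults against 5839, 6025 and 7294 CPM in juveniles. The rise with the smallest p in the list was a glutathione hydrolase (gene13474), which cleaves extracellular glutathione, with 57.8, 59.2 and 109 CPM in adults and 1.83, 2.76 and 1.61 CPM in juveniles (log2 5.18 ± 0.40, adjusted p = 1.06e-07).

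Chaperones did not move as one. The list had 13 of 105 genes higher and 22 lower, while 10 of 25 genes named as 70-kDa heat shock proteins were higher and none lower. The gene named heat shock protein 70 B2 (gene2826) had 66.3, 50.8 and 80.5 CPM in adults, against 0.746, 1.03 and 0.519 CPM in juveniles, a log2 fold change of 6.39 ± 0.67 (adjusted p = 2.53e-06, edgeR). The small heat shock protein OV25-2 (gene5198) lay at 6.08, 3.85 and 5.49 CPM in adults and 57.4, 251 and 543 CPM in juveniles, so the juveniles differed widely among themselves.

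Among immune genes rises outnumbered falls, 105 to 31 of 361. The families named here, like the enzyme complexes above, were picked out after the values were seen, so their counts are a description. NFX1-type zinc finger genes, RNA helicase relatives linked to antiviral defence and small-RNA inheritance in other animals, were higher in adults in 19 of 21 tested genes and lower in none. Their summed level was 380, 789 and 736 CPM in the adults, against 24.1, 50.5 and 25.4 CPM in the juveniles. Leaving out the third juvenile library gave 12. One of them (gene4258) had 33.0, 51.5 and 44.0 CPM in adults and 0.847, 2.95 and 1.82 CPM in juveniles (log2 4.51 ± 0.71, adjusted p = 1.46e-04, edgeR), while another (gene26445) reached 95.7 CPM in the second adult library and 4.74 and 0.452 CPM in the others.

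Other families were described in the same way. Poly(ADP-ribose) polymerases, several of which act in antiviral responses of vertebrates, were higher in 23 of 34 genes with a summed level of 888, 962 and 909.5 CPM in adults and 241, 283 and 204 CPM in juveniles. Sacsin-like chaperone genes were higher in 13 of 21, and their sums were 551, 493 and 615 CPM in adults against 93.1, 147 and 34.0 CPM in juveniles. STING, the sensor of cyclic dinucleotides, was higher in 6 of 9 genes; gene3969 had 7.96, 6.02 and 9.52 CPM in adults and 0.779, 0.564 and 0.312 CPM in juveniles. Guanylate-binding proteins, GTPases that attack microbes inside vertebrate cells, had 7 of 10 genes higher and 1 lower. Of 8 genes named as RNA-dependent RNA polymerases, which amplify small interfering RNA in worms and plants, 6 were higher, and gene13162 stood at 32.3, 32.0 and 30.8 CPM in adults against 0.474, 0.784 and 0.675 CPM in juveniles. The enzymes that sense cytosolic nucleic acid upstream of such pathways in vertebrates, cGAS and 2-5A synthases, had 4 of 17 genes higher and 2 lower (1 higher without the first juvenile library), and their sums overlapped at 146, 140 and 201 CPM in adults and 134, 151 and 149 CPM in juveniles. Dicer (gene9492), which cuts double-stranded RNA, averaged 49.2 ± 6.94 CPM in adults and 13.3 ± 5.97 CPM in juveniles (log2 1.89 ± 0.42, adjusted p = 0.00238). Apart from the NFX1-type genes and the cGAS and 2-5A synthases, leaving out any 1 of the 6 libraries moved the count of rises by no more than 1.5 times in the families of these 2 paragraphs.

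Signal carriers and surface sensors had smaller shares of rises, to be read against the 16.7% of all genes. TRAF adaptors were higher in 31 of 89 genes and lower in 6, NLR-type genes higher in 17 of 78 and lower in 2 (11 higher without the first adult library), and lectins higher in 8 of 42 and lower in 2 (4 higher without the first juvenile library). MyD88 (gene17666), the adaptor of Toll-like receptors, had 251, 279.5 and 282 CPM in adults and 138, 134 and 124 CPM in juveniles (log2 1.03 ± 0.16, adjusted p = 1.08e-04, edgeR). A Toll-like receptor 4 gene (gene24239) went the other way at 0.392, 0.0285 and 0.104 CPM in adults against 3.59, 3.73 and 3.32 CPM in juveniles. Complement and C1q genes gave no call in 8. Genes named as mucins changed in both directions. Mucin-4 (gene20856) was at 87.1, 66.5 and 44.7 CPM in adults and 3.46, 3.95 and 2.44 CPM in juveniles. Mucin-5AC (gene28176) averaged 0.837 ± 0.735 CPM in adults and 83.9 ± 22.4 CPM in juveniles. In all 17 of 51 mucin genes were higher and 5 lower, and their summed level overlapped between the groups. Tyrosinases, which make melanin in coral wound and immune reactions, were higher in 6 of 8 genes, with a sum of 71.9, 67.3 and 90.4 CPM in adults and 5.96, 12.5 and 4.67 CPM in juveniles. Many members of these families are close copies, and how the authors' counting shared reads among them is not given, so single members are less certain than the sums.

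The planula and the 8-day juvenile place the pair among earlier stages. Of the 4293 genes higher in adults, 3474 (80.9%) had their highest mean of the 4 shallow stages in adults and 517 in the planula. Of the 3791 lower in adults, 1782 (47.0%) peaked at 60 days and 1592 (42.0%) in the planula. Over all tested genes 28.4% peaked in the planula, 21.3% at 60 days and 32.9% in adults, but the called genes were chosen by their adult and 60-day levels, so the shares of peaks at those stages follow in part from the choice. NFX1-type genes were low before the adult: they summed to 36.5 CPM in planulae, 29.5 CPM at 8 days, 33.3 CPM at 60 days and 635 CPM in adults (means of 3 libraries). Other immune families followed other courses: cGAS and 2-5A synthases stood at 225, 132, 145 and 163 CPM over the same stages, NLR-type genes at 1440, 819, 1147 and 1828 CPM, and mucins at 1824, 1747, 1413 and 1261 CPM. Complex I summed to 4302, 2410, 2366 and 1050 CPM over the same stages, and the proteasome core to 3017, 1456, 1717 and 674 CPM, so adults were the lowest of the 4. Catalase and superoxide dismutases stood at 22561, 3799, 13357 and 1501 CPM. Catalase gene3500 alone averaged 22072, 3472, 12948 and 1330 CPM, so this sum describes mainly that gene and not the dismutases. Cathepsins had their highest sum at 60 days, with 1402, 2424, 5130 and 1895 CPM. Wnt ligands stood at 539, 325, 206 and 555 CPM, so the planula sum was near the adult sum. Wnt-5a (gene4411) alone averaged 1.62, 48.2, 18.8 and 231 CPM, so those 2 sums were not made up of the same members. Collagens were highest at 8 days, with 909, 10345, 3315 and 5329 CPM. Genes named as 70-kDa heat shock proteins had their highest mean sum in planulae, with 3249, 1569, 1299 and 2102 CPM. The planula libraries ranged from 1998 to 4795 CPM and the adults from 1865 to 2285 CPM, so those 2 stages overlapped. Planulae and 8-day juveniles entered no test here. Cell death genes, a neighbouring list, had 7 of 42 genes higher and 8 lower (4 lower without the third juvenile library). Over all genes 16.7% were higher and 14.7% lower. The adaptor FADD (gene12191), which links death receptors to caspases, had 3.11, 5.08 and 2.81 CPM in adults and 2 counts in the juveniles, a ratio of 150.0 (95% counting interval 41.2 to 1243).

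**Figure D3:**
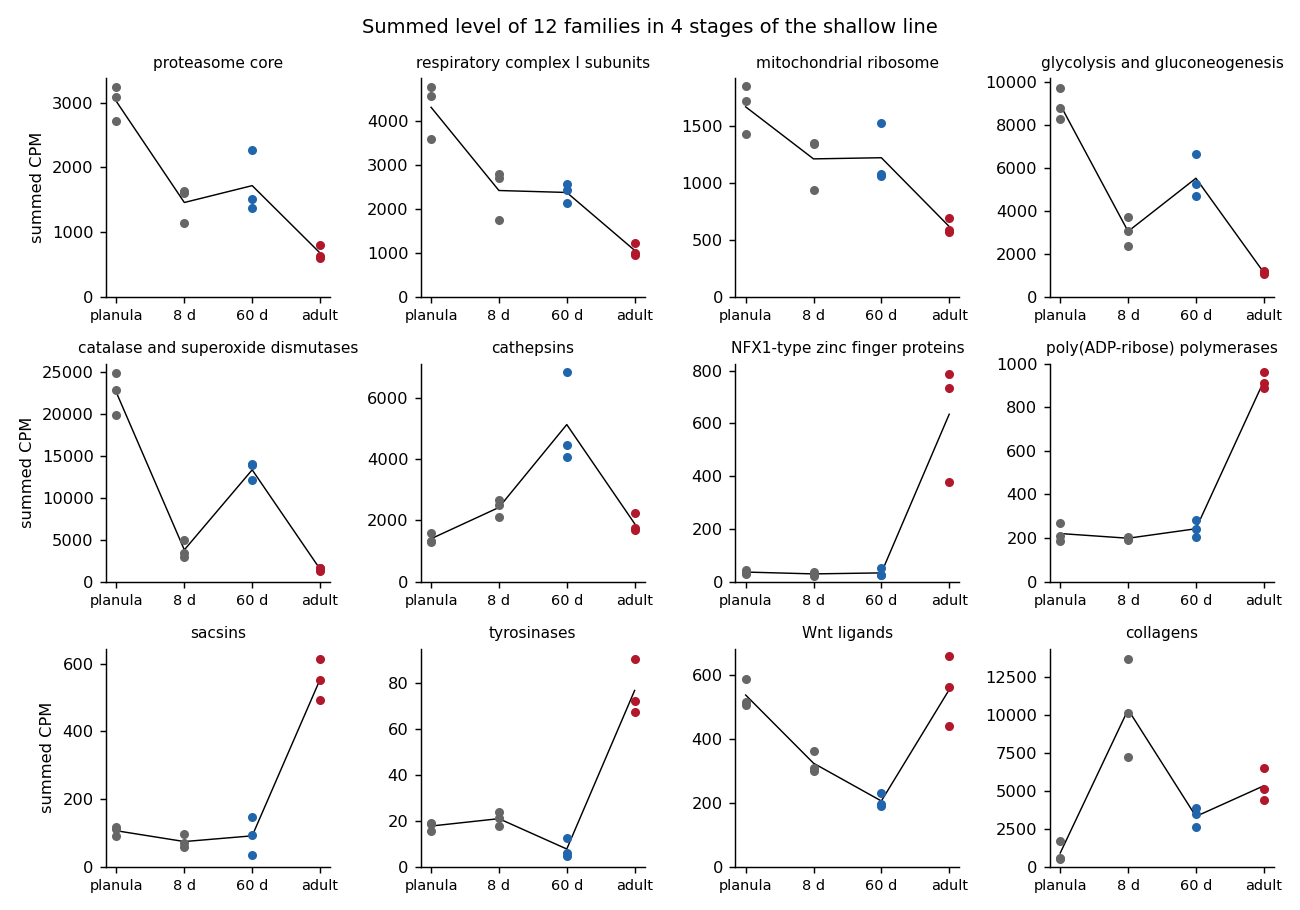
Summed CPM of 12 gene families in shallow planulae, 8-day and 60-day control juveniles and shallow adults, 3 libraries each (points) with their mean (line); 60-day juveniles are blue, adults red, other stages grey, and each axis starts at 0. Proteasome, complex I and mitochondrial ribosome genes are lowest in adults, and NFX1-type, poly(ADP-ribose) polymerase, sacsin and tyrosinase genes are highest there. Collagens are highest at 8 days, and the sum of Wnt ligands is about as high in planulae as in adults, though from different members.

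Several of the largest rises among named genes were secreted and matrix proteins. Perlucin (gene15368), a C-type lectin first known from abalone shell, had 223, 461 and 152 CPM in the adults and 0.0678, 0 and 0 CPM in the juveniles, which held 2 counts in all. The ratio was 11546.5 (95% counting interval 3196 to 95347), and the adjusted p was 2.51e-04 (edgeR). Collagen alpha-6(VI) (gene14848), of a family of beaded filaments in connective tissue, had 40.4, 68.2 and 18.1 CPM in adults and 0 counts in every juvenile library, at least 360.4-fold higher against a floor of 3 counts per library. Collagen alpha-3(VI) (gene14851) had 77.2, 187 and 48.5 CPM in adults and 0.136, 0.345 and 0.104 CPM in juveniles (log2 8.95 ± 0.90). Ectin (gene20735), named after a coral secreted protein, had 94.9, 100.2 and 13.8 CPM in adults and 1 count in the juveniles, a ratio of 5911 (95% counting interval 1061 to 233505). Peroxidasin (gene17235), which crosslinks basement membrane collagen in other animals, was the most abundant of the leading rises at 1685, 2218 and 746 CPM in adults against 6.84, 1.07 and 0.883 CPM in juveniles (log2 9.03 ± 1.36, adjusted p = 9.46e-05). A peroxidase of another name with a close gene number, mlt-7 (gene17232), went the other way, at 717, 742 and 323 CPM in adults against 7809, 6104 and 3935 CPM in juveniles (log2 −3.32 ± 0.53, adjusted p = 1.63e-04).

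A hemagglutinin/amebocyte aggregation factor (gene23284), a clotting and agglutination protein of invertebrate blood cells, had 409, 471 and 276 CPM in adults and 0.0678, 0.125 and 0.0519 CPM in juveniles. SCO-spondin (gene20706), a giant secreted adhesion protein, and neuropilin-2 (gene14707), a guidance co-receptor, were both highest in the third adult library, at 160.2 and 105 CPM, with 27.8 and 36.2 CPM and 23.4 and 21.8 CPM in the others. Rises that rested mostly on 1 adult library were those of eukaryotic translation initiation factor 5B (gene16844; 72.2, 0.485 and 1.46 CPM) and of the NFX1-type gene26445 given above. A coiled-coil domain-containing protein 150 gene (gene7875; 20.3, 56.2 and 18.5 CPM) and guanylate-binding protein 6 (gene21946; 10.4, 36.2 and 23.4 CPM) had 4 and 3 counts in the juveniles. For the GTPase that is a ratio of 625 (95% counting interval 214 to 3034), and for the initiation factor, with 2 counts in the juveniles, 1068 (295 to 8823). All 12 of the leading rises were called with adults above juveniles in every library, as the rule for naming them required.

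**Figure D4:**
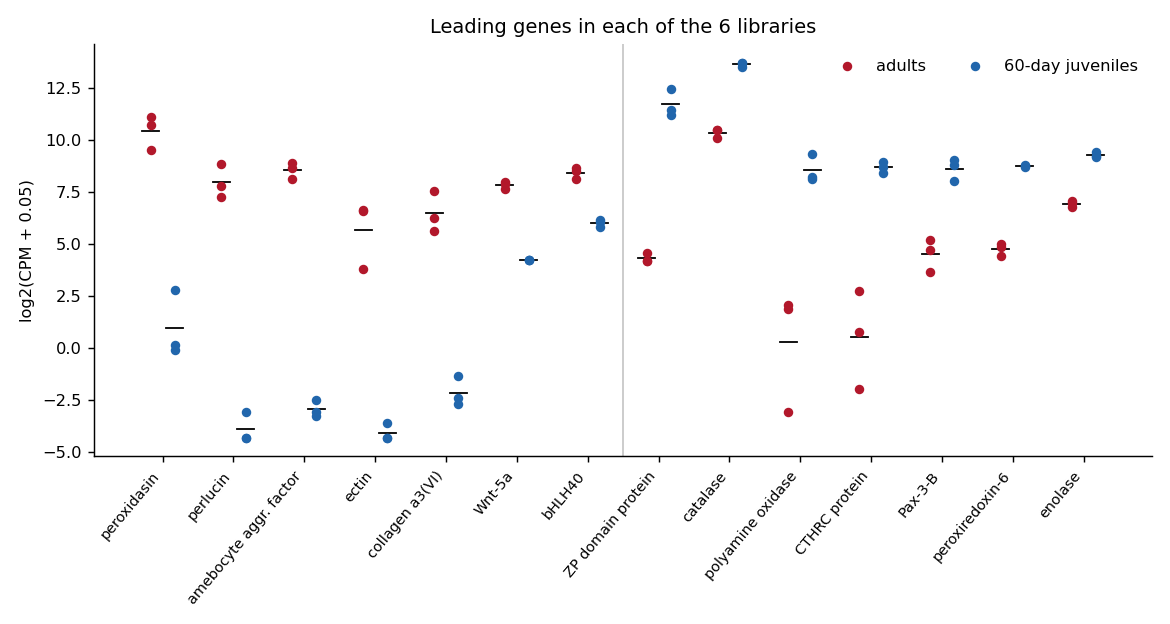
Level of 14 named genes in each of the 6 libraries as log2(CPM + 0.05), adults red on the left and 60-day juveniles blue on the right of each gene, with bars at the mean. The 7 genes left of the grey line were called higher in adults and the 7 on the right lower; the groups do not overlap in any of them.

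Beyond those genes, the matrix and adhesion list had a median log2 fold change of 0.61. Collagens were higher in adults in 19 of 76 genes and lower in 8 (5 lower without the second juvenile library), hemicentins (giant basement membrane proteins) higher in 23 of 73 and lower in 4 (12 higher without the third juvenile library, 0 lower without the second adult), and thrombospondins with ADAMTS proteases, which cut matrix, higher in 13 of 41 and lower in 3 (6 higher without the third juvenile library). Fibropellin-1 (gene10356), an extracellular matrix protein of sea urchin embryos, had 29.1, 29.6 and 56.2 CPM in adults and 1.08, 0.533 and 0.415 CPM in juveniles (log2 5.79 ± 0.57, adjusted p = 1.28e-06, edgeR). Cadherin-23 (gene10050), an adhesion protein of hair-cell links, averaged 126 ± 31.6 CPM in adults and 16.5 ± 5.3 CPM in juveniles (SD, n = 3 each). Integrins, the receptors of this matrix, had 1 of 10 genes higher and 1 lower. Summed collagen level was 6501, 4370 and 5116 CPM in adults and 3470, 3887 and 2589 CPM in juveniles, and the lowest adult lay close to the highest juvenile.

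Among the largest falls, a ZP domain-containing gene (gene22305), of a family of polymerising secreted proteins, stood out by level: 23.8, 17.9 and 18.4 CPM in adults, against 5729.5, 2794 and 2395 CPM in juveniles (log2 −7.50 ± 0.59, adjusted p = 1.10e-07, edgeR). Collagen triple helix repeat-containing protein (gene12), a secreted glycoprotein, had 6.73, 0.2 and 1.63 CPM in adults against 341, 490.2 and 418 CPM in juveniles. Polyamine oxidase (gene228), which breaks down spermine and releases hydrogen peroxide, was at 4.09, 3.59 and 0.0695 CPM in adults against 654, 284 and 296 CPM in juveniles. Steroid 17-alpha-hydroxylase (gene25298), a cytochrome P450 of steroid synthesis in vertebrates, had 0.0841, 0 and 0.139 CPM in adults against 35.7, 23.4 and 31.9 CPM in juveniles (log2 −8.63 ± 0.42, adjusted p = 3.15e-10), and 7 of the 16 genes with that name were lower in adults and none higher. The choline transporter gene333, the somatostatin receptor type 4 gene4528 and TRAF3 (gene3408) reached at most 0.208 CPM in the adult libraries and at least 22.2 CPM in the juvenile libraries. A second gene named for collagen triple helix repeats (gene7085) had 0.645, 1.05 and 0.904 CPM in adults and 20.9, 16.3 and 14.7 CPM in juveniles.

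Other falls of this size varied within the juveniles. TRIM34 (gene3405), of a family of ubiquitin ligases with antiviral members, had 2 counts in all 3 adults, against 23.3 ± 15.4 CPM in juveniles (SD, n = 3), a ratio of juveniles over adults of 1033 (95% counting interval 286 to 8538). An ADP-ribosylation factor (gene15025), a small GTPase of vesicle budding, had 0.712, 1.66 and 36.7 CPM in the juveniles, and the nuclear phosphoprotein ANP32B (gene22931) had 9.01, 65.2 and 0.675 CPM; neither passed 0.257 CPM in an adult. TRPA1-type channels, which sense irritants and temperature, changed in both directions. One (gene7266) had 0.028, 0.0285 and 0.139 CPM in adults against 5.83, 1.44 and 24.5 CPM in juveniles, and another (gene8400) had 855, 1094 and 572 CPM in adults against 4.88, 11.5 and 7.27 CPM in juveniles (log2 6.74 ± 0.61, adjusted p = 5.32e-07, edgeR). Over all 58 TRP channel genes 13 were higher in adults and 10 lower.

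Of the developmental signalling list, ligands and receptors moved in both directions. Wnt ligands, which pattern the body axis, were higher in adults in 6 of 20 genes and lower in none. Wnt-5a (gene4411) had 250.3, 203 and 241 CPM in adults and 18.9, 18.7 and 18.7 CPM in juveniles (log2 3.62 ± 0.51, adjusted p = 4.72e-05, edgeR). Delta-like protein 1 (gene9857), a Notch ligand, rose to 53.3, 53.6 and 30.4 CPM in adults, against 0.746, 0.282 and 0.987 CPM in juveniles, while the receptor-type gene notch 1 (gene10475) fell to 50.1, 56.6 and 52.6 CPM in adults, against 136, 137 and 207 CPM in juveniles. BMP2-A (gene7035), a growth factor of axis and skeletal patterning, had 0.701, 0 and 0.591 CPM in adults and 64.7, 36.1 and 104 CPM in juveniles, and BMP1 (gene27697), which is a metalloprotease despite its name, had 8.61, 8.04 and 4.83 CPM in adults and 0.0339, 0.0941 and 0.156 CPM in juveniles. FGF receptors were higher in 17 of 62 genes and lower in 6 (10 higher without the third juvenile library), with FGF receptor 1-A (gene15668) at 3.53, 3.28 and 2.92 CPM in adults against 36.3, 41.8 and 29.6 CPM in juveniles. Homeobox, forkhead, SOX and related factors had 20 of 179 genes higher and 12 lower (9 higher without the second juvenile library, 6 lower without the first). These shares, 11.2% and 6.70%, were below the 16.7% and 14.7% of all genes. Irx-4-A (gene21891), an iroquois homeodomain factor, had 161, 125 and 164 CPM in adults and 51.1, 44.5 and 26.5 CPM in juveniles. Pax-3-B (gene735), a paired-box regulator, was at 26.1, 36.2 and 12.4 CPM in adults and 440.3, 265 and 529 CPM in juveniles.

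Skeleton-building genes differed member by member. The skeletal organic matrix list, whose proteins are secreted by the calicoblastic layer into the growing skeleton, had 21 of 95 genes higher in adults and 8 lower (10 higher without the third juvenile library, 5 lower without the second adult), yet its summed level was lower in adults, 3237 to 4028 CPM against 6970 to 7593 CPM in juveniles. A gene named uncharacterized skeletal organic matrix protein 5 (gene21300) was the fall with the smallest p in that list: 92.5, 79.9 and 74.6 CPM in adults and 2228, 1763 and 1202 CPM in juveniles (log2 −4.39 ± 0.58, adjusted p = 2.45e-05, edgeR). An acidic skeletal organic matrix protein (gene4926) had 1.57, 0.228 and 0.243 CPM in adults and 49.1, 46.4 and 64.6 CPM in juveniles, and skeletal aspartic acid-rich protein 2 (gene4012) was 4.74-fold lower in adults. Galaxin-2 (gene17403), a cysteine-rich protein of coral skeleton, was higher at 51.6, 77.5 and 41.9 CPM in adults, against 2.81, 12.7 and 1.66 CPM in juveniles. The markers of the calicoblastic layer thus include both rises and falls.

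Ion and carbon supply to the skeleton was also split. Carbonic anhydrases, which interconvert carbon dioxide and bicarbonate, had 6 of 24 genes higher and 7 lower (3 higher without the third juvenile library, 3 lower without the second adult). The one with the smallest p among the rises (gene24292) was scarce, at 6.90, 3.17 and 2.64 CPM in adults and 0.169, 0.345 and 0.104 CPM in juveniles. Carbonic anhydrase 2 (gene25728) had 1535, 1074 and 822 CPM in adults and 494, 338 and 366 CPM in juveniles (log2 1.52 ± 0.40, adjusted p = 0.00806, edgeR). Carbonic anhydrase 1 (gene25725) had 81.8, 172 and 152 CPM in adults against 686, 604 and 692 CPM in juveniles, and a second carbonic anhydrase 2 gene (gene18335) 88.1, 181 and 252 CPM in adults against 1648, 919 and 709 CPM in juveniles. The summed level of the family was 2357, 2034 and 1954 CPM in adults and 4125, 2922 and 2613 CPM in juveniles. An electroneutral sodium bicarbonate exchanger (gene19533) fell to 251, 292 and 183 CPM in adults, against 1001, 872 and 1067 CPM in juveniles.

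Markers of nerve cells, muscle, cilia and sperm included both rises and falls. Over all genes 16.7% were higher and 14.7% lower. The neuron and synapse list stood below both shares, at 15.7% and 9.25%, and the sperm and testis list at 11.5% and 19.7%. Neuron and synapse genes were higher in 80 of 508 and lower in 47 (45 higher without the third juvenile library), and their summed level overlapped at 4987 to 5513 CPM in adults and 4962 to 5466 CPM in juveniles. A GABA type B receptor subunit (gene8374) had 35.2, 23.1 and 38.3 CPM in adults and 2.64, 1.66 and 3.38 CPM in juveniles, and an octopamine receptor (gene8347) had 0.813, 0.285 and 0.66 CPM in adults against 10.1, 16.1 and 18.2 CPM in juveniles. Contractile genes had 25 of 116 higher and 17 lower (15 higher without the third juvenile library, 10 lower without the second adult), with myosin-8 (gene16036) at 29.7, 17.4 and 23.4 CPM in adults against 0.983, 1.44 and 0.779 CPM in juveniles, and a myosin regulatory light chain (gene17178) at 51.6, 52.3 and 79.9 CPM in adults against 299, 254 and 405 CPM in juveniles. Contractile sums were 12161 to 12930 CPM in adults and 13856 to 14028 CPM in juveniles. Sperm and testis names had 7 of 61 genes higher and 12 lower (3 higher without the first adult library, 5 lower without the first juvenile). A dual specificity testis-specific kinase (gene16183) had 58.4, 78.8 and 48.9 CPM in adults and 12.3, 12.1 and 9.19 CPM in juveniles, while the axonemal inner dynein arm light chain (gene21966), a part of moving cilia, had 32.1, 29.4 and 29.1 CPM in adults and averaged 60.8 CPM in juveniles. Summed cilia genes overlapped, at 3917 to 4721 CPM in adults and 4319 to 6420 CPM in juveniles. Among histones, 2 of 43 genes were higher and 10 lower (6 lower without the first adult library), with histone H2A (gene21701) at 33.3, 41.5 and 42.6 CPM in adults against 12.5, 19.4 and 6.13 CPM in juveniles.

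Gland and venom genes had more rises than falls in the shallow pair. Digestive and gland enzymes were higher in 21 of 75 genes and lower in 7 (11 higher without the third juvenile library), and zymogens were among the rises. Chymotrypsinogen B (gene17789) had 35.1, 87.4 and 65.1 CPM in adults and 0.61, 2.19 and 0.208 CPM in juveniles, and chymotrypsinogen A (gene9950) 15.1, 17.8 and 34.2 CPM in adults against 0.712, 1.19 and 0.935 CPM in juveniles. The summed level of the list was nonetheless lower, 2944 to 3630 CPM in adults against 5044 to 7812 CPM in juveniles, and its 5 most abundant members in juveniles were cathepsins. Carboxypeptidase A2 (gene16388), which trims peptides, averaged 46.4 ± 3.46 CPM in adults and 10.6 ± 0.504 CPM in juveniles (SD, n = 3 each). The venom list had 7 of 27 genes higher and 1 lower (3 higher without the third juvenile library). Of 8 pore-forming toxin genes 5 were higher (3 without the first juvenile library). In the deep pair the venom list had 4 higher and 4 lower, and pore-forming toxins 3 and 2. Pore-forming toxins summed to 55.6 CPM at 8 days, 3.41 CPM at 60 days and 58.5 CPM in adults (means of 3 libraries). DELTA-alicitoxin (gene2848) had 16.9, 28.1 and 55.0 CPM in adults, against 0.644, 2.92 and 0.156 CPM in juveniles (log2 4.70 ± 0.73, adjusted p = 1.33e-04, edgeR). The fall in the venom list was omega-scoloptoxin (gene11026), named after a centipede toxin, with 3.25, 2.79 and 3.37 CPM in adults and 43.9, 40.5 and 62.1 CPM in juveniles. The 1 tested gene of nematocyst structure, nematocyst expressed protein 6 (gene10427), was called higher at 0.252, 0.77 and 0.417 CPM in adults and 3 counts in the juveniles, a ratio of 12.97 (95% counting interval 4.18 to 65.1).

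The germ line list had 6 of 40 genes higher and 5 lower (3 and 3 without the third juvenile library). The meiosis gene MEIOB (gene14249), needed for recombination in mice, had 3.36, 6.65 and 28.6 CPM in adults and 0.203, 0.47 and 0.675 CPM in juveniles (log2 4.85 ± 0.85, adjusted p = 3.91e-04, edgeR). The third adult library was the highest for it and for vitellogenin-1. Nanos (gene6237) and piwi (gene3892), which mark germ and stem cells, had 85.8, 94.8 and 108 CPM and 121, 121 and 132 CPM in adults, against 41.9, 58.6 and 56.2 CPM in juveniles and 189, 175 and 176 CPM in juveniles; nanos was called higher and piwi lower. Zonadhesin (gene15319), a sperm-egg adhesion protein in mammals, had 20.1, 14.5 and 20.9 CPM in adults and 77.3, 91.6 and 73.6 CPM in juveniles.

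Host genes of symbiotic exchange, mostly transporters of sugars, sterols, ammonium and amino acids, were higher in 23 of 188 and lower in 42 (12 and 26 without the third juvenile library). Niemann-Pick C1 (gene22241), a sterol transporter that coats the compartment holding the algae in other cnidarians, was tight within groups at 98.0, 96.0 and 98.2 CPM in adults and 187, 187 and 196 CPM in juveniles (log2 −0.96 ± 0.15, adjusted p = 1.62e-04, edgeR). Monocarboxylate transporter 10 (gene14108), a carrier of aromatic amino acids in mammals, had 3.03, 1.88 and 2.64 CPM in adults and 0 counts in every juvenile library, at least 21.5-fold higher against the floor. Transcripts of the algae were not analysed here.

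Clock genes mostly rose where they changed. Of 13 clock and blue-light receptor genes, 5 were higher in adults and 1 lower (38.5% and 7.69%, beside 16.7% and 14.7% of all genes). No hour of collection entered the comparison, so hour and stage cannot be told apart for these genes or the immediate early factors. The transcriptional repressor bHLH40 (gene8345), a clock-controlled factor, had 406, 366 and 279 CPM in adults and 56.3, 70.6 and 66.0 CPM in juveniles (log2 2.45 ± 0.17, adjusted p = 2.99e-08, edgeR). Thyrotroph embryonic factor (gene10071), a clock-output activator, was at 757, 684 and 555 CPM in adults against 191, 229 and 165 CPM in juveniles. CLOCK (gene4863), the activator of the core loop, had 0.617, 0.314 and 0.765 CPM in adults against 6.78, 5.77 and 6.75 CPM in juveniles (log2 −3.50 ± 0.32, adjusted p = 6.57e-07). Cryptochrome DASH (gene8032), a blue-light photolyase relative, rose 2.75-fold. Immediate early factors had 5 of 19 genes higher and none lower, with c-Fos (gene12870) at 15.1, 12.6 and 32.9 CPM in adults against 0.847, 3.01 and 2.18 CPM in juveniles. The most abundant of the list, another c-Fos (gene5217), overlapped at 16502, 15193 and 15192 CPM in adults and 21319.7, 15649.6 and 15454 CPM in juveniles. Early growth response protein 1 (gene4767) was at 6285, 7320.0 and 2975 CPM in adults against 2196, 891 and 1637 CPM in juveniles and missed the threshold (log2 1.81 ± 0.80, adjusted p = 0.0897).

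Fluorescent protein genes, all 6 named after the same chromoprotein amFP486, varied widely between libraries of the same stage. The abundant copy (gene28123) had 5042, 3611 and 3004 CPM in adults and 5364, 4529.6 and 2.18 CPM in juveniles, the third juvenile library lying far below the others (log2 0.24 ± 1.19, adjusted p = 0.902, edgeR). A second copy (gene26795) had 360.1, 0.171 and 98.5 CPM in adults and 32.4, 3.58 and 0.623 CPM in juveniles. Of the others, gene26459 was called higher (95.7, 0.228 and 26.1 CPM in adults against 4.17, 3.54 and 5.35 CPM in juveniles) although the second adult lay below every juvenile, gene24392 was called lower, and gene24394 and gene22464 were not called. Opsin and phototransduction genes had 7 of 44 higher and 4 lower (3 and 2 without the third juvenile library). These shares, 15.9% and 9.09%, were below the 16.7% and 14.7% of all genes. A melanopsin (gene21431), a light receptor, was at 1.34, 0.827 and 1.08 CPM in adults against 0.0339, 0.0314 and 0.312 CPM in juveniles. A melanopsin-B (gene2206) was at 0.981, 0.428 and 0.904 CPM in adults against 2.75, 3.14 and 2.65 CPM in juveniles.

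The deep pair compared the same stages in other libraries. Deep adults differed from translocated 60-day juveniles in 6118 genes (23.8%; 3316 higher, 12.9%, and 2802 lower, 10.9%). Of the genes higher in shallow adults, 1764 were also higher in deep adults, 41.1% of the shallow and 53.2% of the deep rises. Of those lower, 1370 were lower in both, 36.1% of the shallow and 48.9% of the deep falls. The 2 pairs share no library, but they differ in more than depth, since deep adults were native to the deep reef and the juveniles of shallow origin. A test of the difference between the 2 contrasts called 1118 genes (4.34%; 671 with the larger shallow value, 2.61%, and 447 with the larger deep value, 1.74%), or 1955 without the second deep adult and 654 without the third shallow juvenile. It called 653 of the 8084. Those genes were chosen by the shallow contrast, which is part of this test, so their share is not to be read against 4.34%.

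The shallow falls in energy and proteasome genes were called in the deep pair to different extents. Glycolysis and gluconeogenesis genes were lower in 8 of 14 in deep adults, with a median of −0.90, against 9 of 14 in the shallow pair, and complex II in 3 of 4, against 4 of 4. Oxidative phosphorylation had 8 of 69 genes lower in deep adults, with a median of −0.15, a share close to the 10.9% of all genes. The proteasome had 1 of 43, below that share, with a median of −0.14. The shallow medians were −1.09 and −1.06. The test of the difference itself, gene by gene, called 4 and 1 of them, where 4.34% of all genes were called. For most members a difference between the pairs was therefore not shown. Proteasome subunit alpha 4 (gene21279) was the proteasome gene called by that test. It averaged 84.1 CPM in deep adults and 90.2 CPM in translocated juveniles, beside 55.5 CPM in shallow adults and 163 CPM in control juveniles. The innate immunity list had 63 of 361 genes higher in deep adults and 31 lower, where 12.9% and 10.9% of all genes were. Of the families described above, 15 of 34 poly(ADP-ribose) polymerases, 5 of 21 NFX1-type genes and 4 of 8 tyrosinases were higher in deep adults, as were 8 of 78 NLR-type genes, 5 of 42 lectins, 1 of 12 Toll-like receptor and MyD88 genes and 1 of 4 RIG-I-type helicase and Dicer genes. Sacsin-like genes were higher there in 10 of 21. Falls of catalase and peroxiredoxin-6 were similar in both pairs, with log2 fold changes of −3.26 ± 0.35 and −4.20 ± 0.39 at depth.

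**Figure D5:**
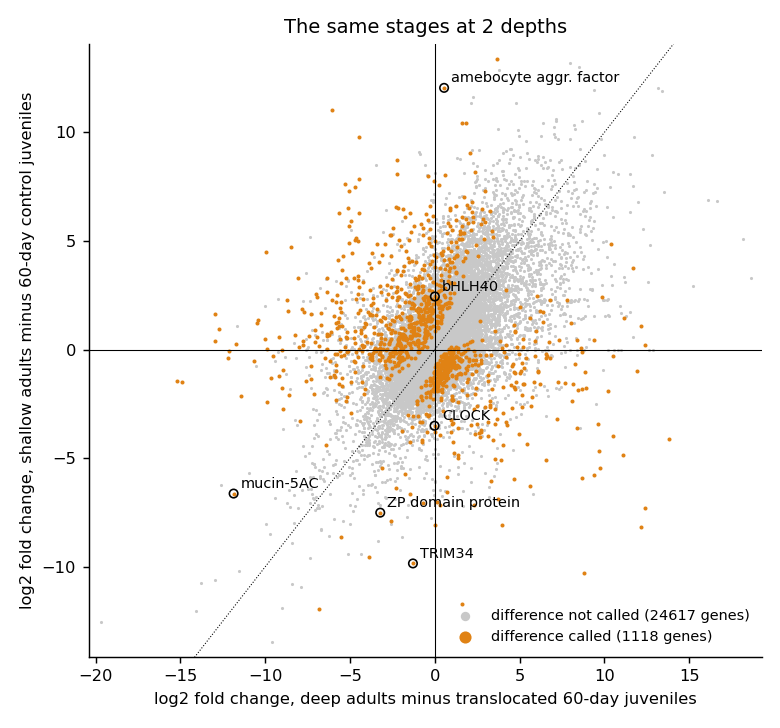
Log2 fold change of each tested gene, adults over 60-day juveniles, in the shallow pair (vertical) and the deep pair (horizontal), with the 1118 genes whose 2 changes differ in orange, the others grey and 6 named genes ringed. Many points lie near the dotted line of equal change, while bHLH40 and CLOCK lie at 0.01 and −0.01 on the horizontal axis.

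Of the 13 clock genes, 5 differed between the pairs, where 4.34% of all genes were called. The hour of collection entered neither pair, so it cannot be told apart from stage or depth here. bHLH40 averaged 263 CPM in deep adults and 262 CPM in translocated juveniles (log2 0.01 ± 0.16), and the difference from the shallow pair was 2.44 (adjusted p = 3.87e-06, edgeR). CLOCK averaged 2.91 CPM in deep adults and 2.93 CPM in translocated juveniles (difference −3.49, adjusted p = 8.17e-05). The second bHLH40 gene (gene25223) was higher in shallow adults, 162, 182 and 122 CPM against 66.2, 94.4 and 71.6 CPM in control juveniles, and lower in deep adults, 99.6 CPM against 238 CPM in translocated juveniles (difference 2.26, adjusted p = 9.25e-05). Carbonic anhydrase 2 (gene25728) did likewise, at 258 CPM in deep adults against 1246 CPM in translocated juveniles, a log2 fold change of −2.27 ± 0.41 where the shallow pair had 1.52 (difference 3.79, adjusted p = 7.61e-04). The amebocyte aggregation factor had a log2 fold change of 12.05 ± 1.27 in the shallow pair and 0.55 ± 0.75 in the deep pair, where deep adults averaged 30.4 CPM and translocated juveniles 20.8 CPM.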

How the data were processed

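The authors deposited one table of raw counts per gene for 24 libraries. Per the labels' protocols, polyadenylated RNA from 500 ng of total RNA (integrity number above 7.7) was sequenced with molecular identifiers added before PCR. The submitters' processing notes list DESeq2, Trimmomatic, cutadapt, MultiQC and FastQC. No source used here gives the aligner, genome build, strand setting or handling of the identifiers, so reads of overlapping genes or close copies may have been shared, and counts may include PCR duplicates. Counting intervals (95%, exact) and the floor of 3 counts per library cover counting error only. Gene names came from the deposited annotation; 15437 of 33281 genes had an informative one, and no sequence or coordinate was used here.

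All 24 libraries were fitted in one model of 8 group means (edgeR 4.0.16 in R 4.3.3, TMM scaling, filterByExpr, quasi-likelihood F test, 16 residual degrees of freedom), with Benjamini-Hochberg adjustment over 25735 genes and a threshold of 0.05. CPM values were scaled by the same factors. Standard errors were taken from the fold change and its F statistic. Fold changes are adults over juveniles. The test was run on simulated data in which far fewer genes changed than the 31.4% called here, so it cannot check the scaling.

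Named genes were the 12 largest called rises and the 12 largest called falls with an informative name, 10 CPM or more in the group that was higher, and groups that did not overlap, the called member of each of 30 lists with the smallest p each way, the 5 most abundant named genes of each group, and every member of lists of 8 or fewer. Members and lists were chosen with earlier results of these data known. The families and the other genes described were picked by name after their values were seen. Alternatives were other scalings, no filter, DESeq2 1.42.0, a minimum log2 change of 1, only the groups compared, a replicate block and leaving out each library.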

Additional observations from a re-analysis of the deposited data

Results flagged for a closer look

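The change between 60-day juveniles and adults differed between the shallow and the deep pair in 18 of the 89 genes named by rule. This was by the test of the difference itself (edgeR, adjusted p under 0.05). Values are the shallow minus the deep log2 fold change. In the same test 4.34% of all genes were called. Most genes named by rule were chosen by their shallow fold change or p, which enters that test. The 18 of 89 are therefore not to be read against 4.34%. The difference was positive for the hemagglutinin/amebocyte aggregation factor gene23284 (11.5), mucin-5AC gene28176 (5.23), DELTA-alicitoxin gene2848 (3.94), heat shock protein 70 B2 gene2826 (3.13), bHLH40 gene8345 (2.44), mucin-4 gene20856 (1.76) and glutathione hydrolase gene13474 (1.74). Mucin-5AC fell in both pairs. In the deep pair it averaged 0.0271 CPM in deep adults and 87.2 CPM in translocated juveniles, a level so near 0 in deep adults that the fitted difference depends on the prior count and gives no size.

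The difference was negative for TRIM34 gene3405 (−8.56), ANP32B gene22931 (−7.51), the ADP-ribosylation factor gene15025 (−6.39), the choline transporter gene333 (−5.65), the ZP domain gene gene22305 (−4.29), CLOCK gene4863 (−3.49), steroid 17-alpha-hydroxylase gene25298 (−3.08), histone H1-delta gene12714 (−2.24), 3-ketoacyl-CoA thiolase gene21796 (−1.39), enolase gene13500 (−1.27) and long-chain-fatty-acid–CoA ligase 4 gene12809 (−0.93). TRIM34 had 2 counts in the shallow adults, so its fitted value depends on the prior count and gives no size. ANP32B averaged 0.749 CPM in deep adults and 0.543 CPM in translocated juveniles, and the ADP-ribosylation factor 0.538 CPM and 0.867 CPM. In the shallow juveniles each of those 2 genes was high in 1 library.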

How the results depend on the processing

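Of the 8084 genes called in the shallow pair, 7382 were also called with median-of-ratios size factors (7780 called), 6828 with no scaling factors (7075), 7297 with no filter on low counts (7443), 6340 when only the compared groups were fitted (7457) and 7804 with DESeq2 (9359). Called genes in the deep pair numbered 1891 when only its groups were fitted, and genes differing between the pairs 268. DESeq2 gave 2538 differing genes. A minimum log2 change of 1 gave 2757 genes in the shallow pair, 2258 in the deep pair and 337 for the difference. Leaving out 1 library gave 5318 to 7156 in the shallow pair, 4710 to 6571 in the deep pair and 654 to 1955 for the difference. With the replicate block 7525, 6089 and 1302 genes were called in the shallow pair, the deep pair and the difference, and 7224 of the shallow calls were shared. Deviations of same-numbered libraries correlated at −0.030 to −0.006 in the shallow pair and −0.006 to 0.099 in the deep pair, so the numbers were not treated as pairs. Of 183 genes described by name, 174 were called and 126 kept their direction and side of the threshold in every alternative. The exceptions in sign were 2 genes that were not called: the fluorescent protein gene28123, with 0.24 over all libraries and −0.35 (without the third control juvenile) to 0.78 when 1 library was left out, and c-Fos, where the log2 fold change of gene5217 was −0.16 over all libraries, 0.0117 with no scaling factor and −0.24 to 0.0072 (without the first control juvenile) when 1 library was left out. The causes were not tested. Of the 6 libraries of the shallow pair, leaving out the third juvenile, the one with the fewest counts, gave the lowest count of called genes (5318).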
